A study of Mus musculus with 5 samples.

Results

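The 52 genes described here are the mouse chemokines and chemokine receptors with a named probe set of their own on a whole-transcript expression array. They were all genes whose single annotated symbol starts with Ccl, Cxcl, Ccr, Cxcr, Xcl, Xcr, Cx3cl or Cx3cr followed by a digit, out of 22180 genes with a single symbol, and each was read from its probe set of highest mean signal. Of the 52, 34 encode ligands and 18 encode receptors. The arrays measured total RNA of fresh heart tissue from male C57BL/6 mice aged 12 weeks. Akita mice, which carry a mutation in the insulin gene Ins2 and serve as a model of type 1 diabetes, gave 2 arrays (replicates 1 and 3), and wild type mice gave 3 arrays (replicates 3, 4 and 5). The labels give no animal for an array, and the p-values below reflect the spread among these arrays, which may be technical. They also do not state zygosity.

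Chemokines are small secreted proteins that bind to the glycosaminoglycans of vessel walls and matrix and guide leukocytes along the resulting gradients. Their receptors are G protein-coupled and sit mostly on leukocytes. The families are named for the spacing of the first cysteines in the ligand (CC, CXC, XC and CX3C). In the heart, Ccl2 and Ccr2 bring in monocytes, Cx3cl1 and Cx3cr1 act between vessel wall or neurons and macrophages, and Cxcl12 and Cxcr4 act on vessels, stromal cells and progenitors.

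Values are log2 signals, so a difference of 1 is a doubling, and a gene was tested if its mean signal was at or above the 30th percentile of all genes (log2 4.06). The deposited arrays had median signals of 4.60 to 4.71 in Akita hearts and 4.53 to 4.62 in wild type hearts, over all probe sets. Across genes, which are not independent, Pearson correlations between Akita and wild type arrays were 0.978 to 0.985. Inside a group they were 0.983 to 0.992, with the lowest value between the 2 Akita arrays. The tissue label was borne out by 6 genes of heart muscle. Their mean log2 signal was 12.05 and 12.00 in the Akita arrays and 12.10, 12.13 and 12.17 in the wild type arrays. Akita replicate 3 stood apart in atrial, mesothelial and fibroblast markers, as described with Cxcl13. In whole tissue, fewer cells of a type and less RNA per cell cannot be told apart.

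Most of the chemokine and receptor genes lay slightly higher in the Akita hearts, and no single gene passed the test. After Benjamini-Hochberg adjustment of the limma p-values (all 15528 tested genes), 0 of the 38 genes above the filter had an adjusted p under 0.05, against 0.328% of all genes. At an unadjusted p under 0.05 there were 6 of 38 (15.8%), all higher in Akita, against 4.13% of all genes that were higher at this threshold and 9.49% that were lower. They were the receptor genes Cx3cr1 and Ccr7 and the ligand genes Ccl4, Cxcl9, Cxcl13 and Ccl5. Without wild type replicate 4 the count was 2 (Ccr7 and Cxcl9), against 2.71% of all genes in that fit. Without wild type replicate 3 it was 4 (Ccl4, Ccl5, Cx3cr1 and Cxcl13), against 2.94%. Without wild type replicate 5 it was 4, of which 3 (Ccl4, Ccr7 and Cx3cr1) were among the 6, against 4.28%. No gene of the 6 stayed under 0.05 in all of these fits. With each array centred on its median the count was 2 (Ccr7 and Cxcl13), against 2.05%.

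The group difference was above 0 in 29 of the 38 genes (76.3%) and below 0 in 9, against 43.3% above 0 among all genes tested. The median log2 difference over the 38 was 0.14, against -0.03 over all genes tested. It was 0.19 in Akita replicate 1 and 0.08 in Akita replicate 3, each taken against the wild type mean. Both Akita arrays lay above the wild type mean in 16 of the 38 genes (42.1%), against 24% of all genes. Each wild type array, set against the mean of the other wild type arrays, had medians of -0.05, -0.03 and 0.04 over the same genes.

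**Figure D1:**
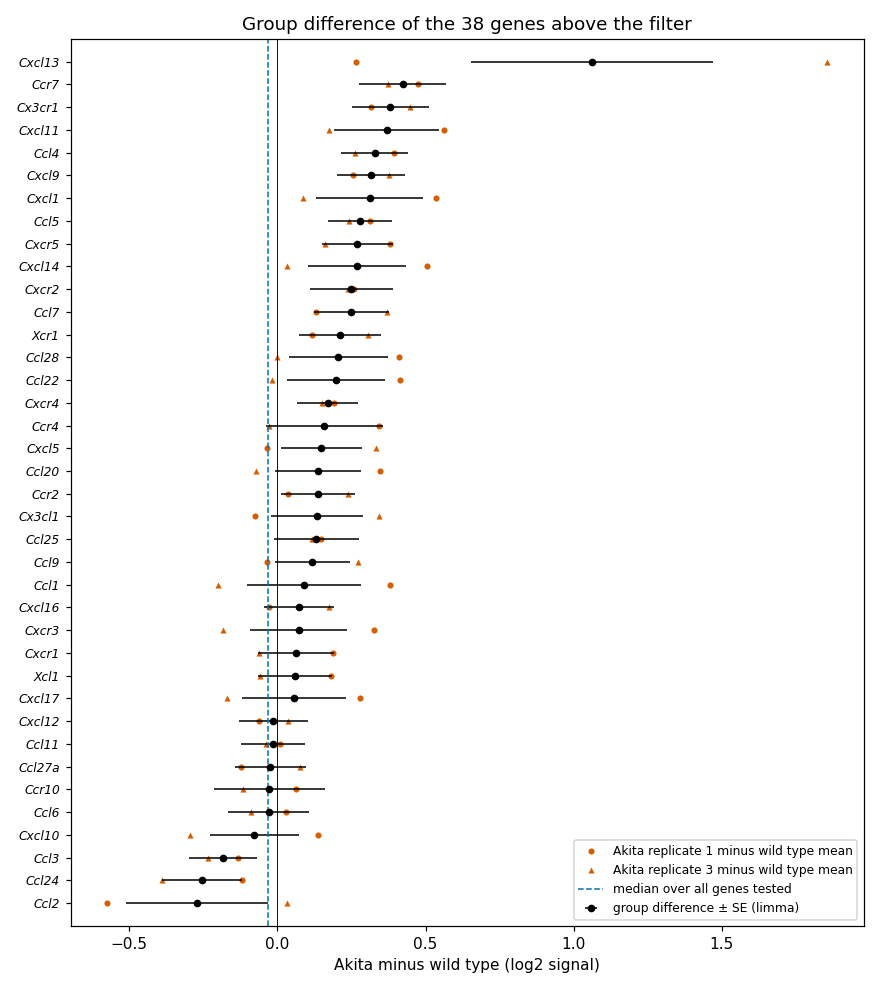
Akita minus wild type log2 signal (x axis) for the 38 chemokine and receptor genes above the filter (y axis), with black points and bars for the group difference ± SE from limma and orange symbols for each Akita array minus the wild type mean. Black points lie above 0 in 29 genes, and Cxcl13 stands apart through Akita replicate 3, while the dashed line marks the median of -0.03 over all genes tested.

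This shift moved with signal level and scaling. Dim genes in general lay higher in Akita and bright genes lower: the median difference was 0.08 over the 3735 tested genes with a mean signal under 5, 0.00 over 3115 genes between 5 and 6, and -0.11 over 3049 genes between 6 and 7. Of the 38 chemokine and receptor genes, 19 had a mean under 5, and their median difference was 0.14. The 9 between 5 and 6 had a median of 0.25 and the 6 between 6 and 7 had one of 0.15. Centring each array on its median, which lowers every difference by 0.085 (log2), gave a median of 0.05 over the 38, with 24 above 0 and 14 below. Over all genes tested the median was then -0.12, and 72.6% lay below 0. Since centring moves all genes alike, it leaves the distance between the 38 and the other genes as it was. Normalizing the arrays by quantiles again gave 0.07 with 29 of 39 above 0, and leaving out Akita replicate 1 gave 0.08. The part of signal level and scaling in the difference between these genes and the rest was not tested.

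**Figure D2:**
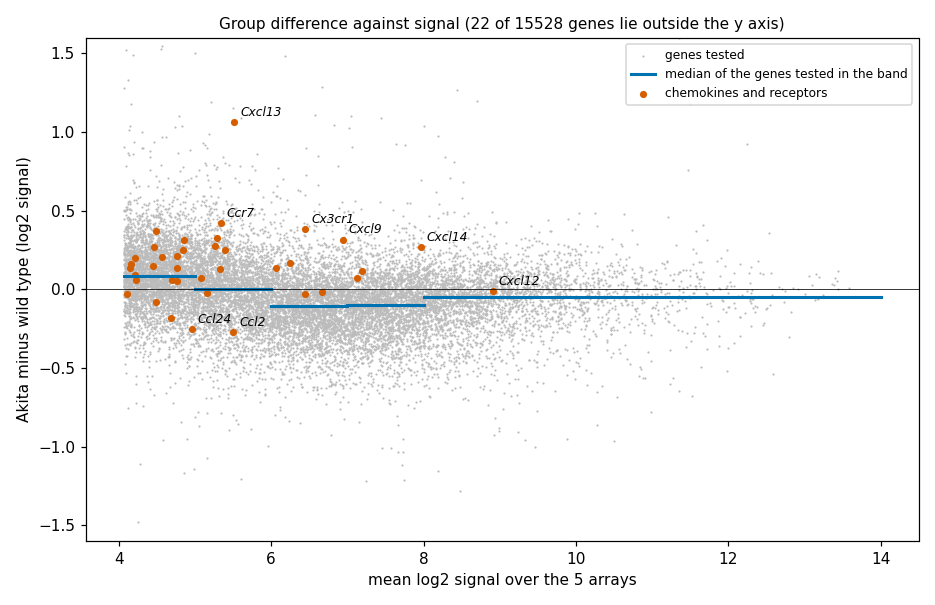
Akita minus wild type log2 signal (y axis) against the mean log2 signal over the 5 arrays (x axis), with grey points for all genes tested, orange points for the 38 chemokine and receptor genes and blue lines for the median of all genes tested in each band of signal. The blue line falls from 0.08 in the dimmest band to -0.11 between 6 and 7, and the medians of the orange points, 0.14, 0.25 and 0.15, lie above it in the 3 dimmest bands.

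In 9 of the 38 genes (23.7%) both Akita arrays lay above all wild type arrays, and in 1 gene (2.63%) both lay below. Over all genes tested these shares were 9.89% and 19.9%. The 9 were Cx3cr1, Ccl4, Ccr7, Cxcl9, Ccl5, Cxcr5, Ccl7, Cxcr2 and Cxcr4, and the gene that lay below was Ccl3. Without Akita replicate 1 the counts were 16 and 5, against 25.2% and 29.5% of all genes, and without Akita replicate 3 they were 22 and 5, against 24.4% and 43.4%. Without wild type replicate 3 they were 13 and 3, against 14.9% and 24.6%. Without wild type replicate 5 they were 13 and 2, against 15.6% and 27.9%.

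**Figure D3:**
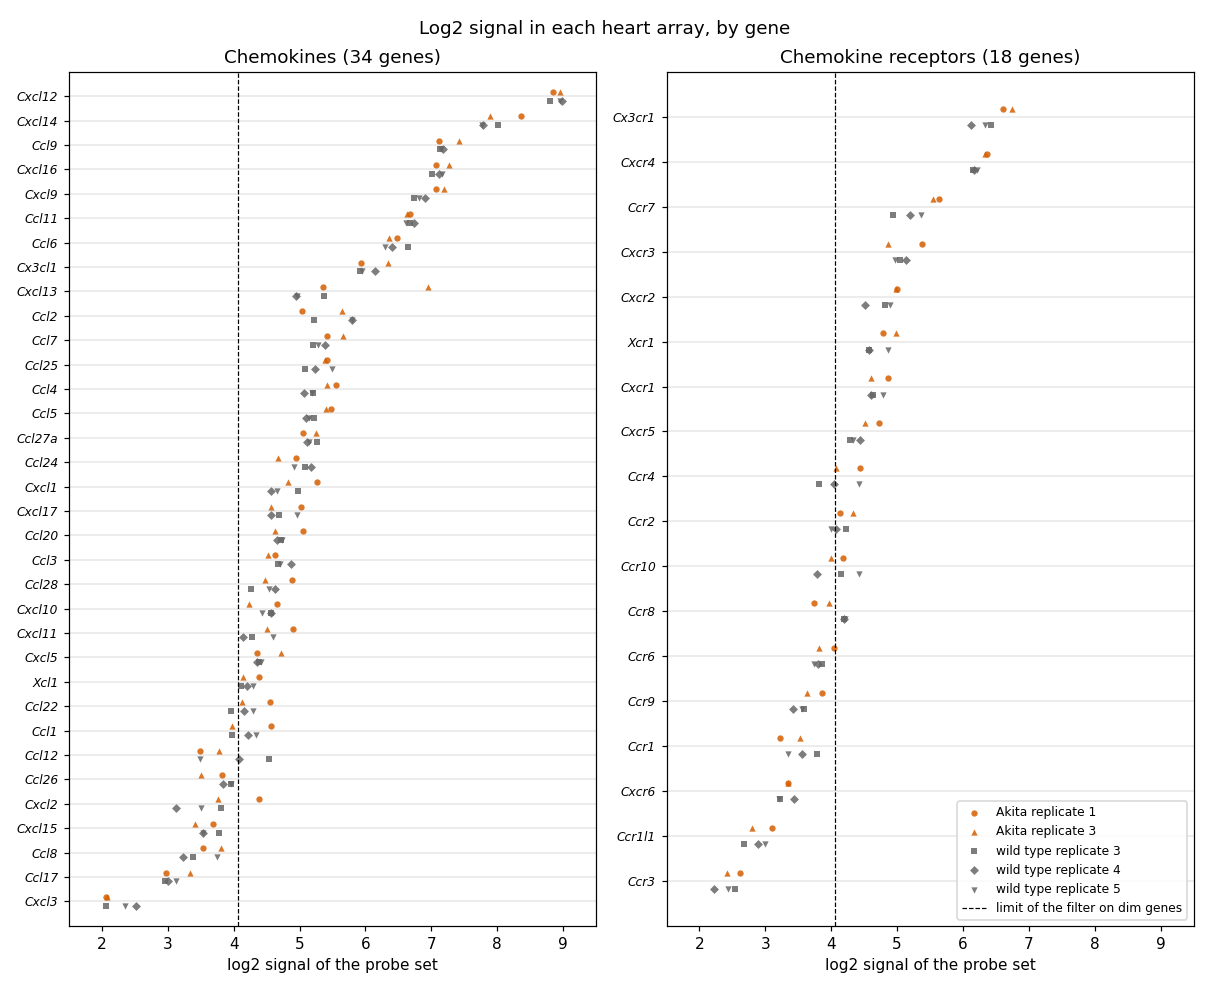
Log2 signal of the probe set (x axis) of each of the 34 chemokine and 18 receptor genes (y axis) in every array, with orange symbols for the 2 Akita arrays above grey symbols for the 3 wild type arrays in each row. The dashed line is the limit of the filter at 4.06, below which the mean of 14 genes lies. Signals of different probe sets do not rank the amounts of their transcripts.

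The bases before the transcription start are shown for 5 of these genes, chosen because Cx3cr1, Cxcl9 and Cxcl13 are among the 6 with the smallest p-values and because Cxcl1 and Cxcl10 are classical targets of the inflammatory factor NF-kappaB. Each is the 250 bases before the start, 5′ to 3′ on the strand of the gene, from RefSeq (GRCm38.p6). Capitals mark matches to the NF-kappaB consensus, the interferon-stimulated response element core, the gamma-activated site (TTCNNNGAA), the AP-1 site (TGANTCA) or the TATA box (TATAAA), searched on both strands.

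Cx3cr1 (chr9:120068297-120068546, minus strand): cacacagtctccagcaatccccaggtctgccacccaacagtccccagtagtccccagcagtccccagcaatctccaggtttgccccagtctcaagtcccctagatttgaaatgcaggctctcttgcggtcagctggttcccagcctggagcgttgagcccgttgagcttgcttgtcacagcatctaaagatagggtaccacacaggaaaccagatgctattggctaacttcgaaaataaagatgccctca

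Cxcl9 (chr5:92328080-92328329, minus strand): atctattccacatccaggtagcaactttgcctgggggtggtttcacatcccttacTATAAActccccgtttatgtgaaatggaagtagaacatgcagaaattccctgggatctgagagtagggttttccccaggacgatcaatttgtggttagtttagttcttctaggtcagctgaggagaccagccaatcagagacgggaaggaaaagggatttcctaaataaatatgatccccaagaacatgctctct

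Cxcl13 (chr5:95956689-95956938, plus strand): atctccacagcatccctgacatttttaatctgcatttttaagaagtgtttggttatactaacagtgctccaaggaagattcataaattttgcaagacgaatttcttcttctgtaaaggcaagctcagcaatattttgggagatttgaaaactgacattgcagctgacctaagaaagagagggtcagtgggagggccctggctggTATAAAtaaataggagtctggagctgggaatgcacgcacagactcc

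Cxcl1 (chr5:90890995-90891244, plus strand): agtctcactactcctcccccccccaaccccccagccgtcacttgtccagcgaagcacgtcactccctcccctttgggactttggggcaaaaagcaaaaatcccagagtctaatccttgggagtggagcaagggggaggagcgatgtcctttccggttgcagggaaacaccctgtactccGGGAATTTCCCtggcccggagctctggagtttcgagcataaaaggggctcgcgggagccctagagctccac

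Cxcl10 (chr5:92348890-92349139, minus strand): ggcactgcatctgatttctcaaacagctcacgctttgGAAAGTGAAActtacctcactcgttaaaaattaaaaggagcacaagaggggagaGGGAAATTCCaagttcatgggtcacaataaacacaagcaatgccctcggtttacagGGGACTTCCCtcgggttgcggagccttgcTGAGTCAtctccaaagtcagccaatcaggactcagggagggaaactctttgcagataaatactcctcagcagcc

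No letters of these 5 motifs were found in the window of Cx3cr1, and those of Cxcl9 and Cxcl13 held a match to the TATA box alone. This match lay at -195 to -190 relative to the start in Cxcl9 and at -46 to -41 in Cxcl13. The Cxcl1 window held the NF-kappaB consensus on both strands, in overlapping matches from -71 to -61 relative to the start. The Cxcl10 window held this consensus at 2 places, together with a response element core and an AP-1 match. RefSeq windows were at hand for 38 of the 52 genes, with 42 starts in all. The NF-kappaB consensus was in 8 of these 42 windows (19%), against 3.9% of 32851 windows of all genes, and the TATA box in 12 (28.6%) against 12.4%. For the AP-1 site the shares were 11.9% and 6.75%, for the gamma-activated site 9.52% and 7.02%, and for the response element core 4.76% and 2.98%. The 8 genes with the NF-kappaB consensus were Ccl9, Ccl20, Ccr3, Ccr6, Cxcl1, Cxcl2, Cxcl3 and Cxcl10. Of these, Ccl9, Ccl20, Cxcl1 and Cxcl10 were above the filter, with group differences of 0.12, 0.14, 0.31 and -0.08 and adjusted p-values from 0.499 to 0.866. A match is a description of letters and does not show a bound site.

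Among the 10 measured CC receptor genes, 4 were above the filter and 3 of these lay higher in Akita. Ccr7 guides dendritic cells and naive T cells into lymphatic vessels and lymph nodes. Its log2 signals were 5.64 and 5.54 in the Akita hearts, against 4.94, 5.19 and 5.37 in the wild type hearts. Both Akita arrays exceeded every wild type array, and the wild type arrays were spread over more than the gap between the groups. The means were 5.59 ± 0.07 (SD, n = 2) in Akita and 5.17 ± 0.22 (SD, n = 3) in wild type hearts, a log2 difference of 0.42 (SE 0.15, 95% interval 0.08 to 0.77, limma adjusted p = 0.295). Of the 3 tested dendritic cell markers 2 lay higher and 1, Cd209a, lower. Cd209a had 7.94 and 7.92 in Akita and 8.35, 8.63 and 8.58 in wild type hearts (limma adjusted p = 0.139). Of the 5 tested T cell markers 3 lay higher and 2 lower, where 43.3% of all genes tested lay above 0. The part of these cell types in the Ccr7 signal was not tested.

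The Ccr7 ligands Ccl19 and Ccl21 exist in several near-identical copies in the mouse, and the array annotates their probe sets to several genes at once, so they are not among the 52 and cannot be assigned to single genes. The 9 probe sets shared by Ccl21 copies, which hold 5 distinct rows of values, lay on the other side from Ccr7. Ccl21 is made by lymphatic endothelium and lymphoid stroma. The medians over the 5 rows were 8.36 and 8.52 in the Akita hearts, against 8.88, 8.90 and 8.88 in the wild type hearts. In all 5 rows both Akita arrays lay below all wild type arrays, against 16.7% of the 28962 probe sets tested. The log2 differences ran from -0.48 to -0.41, with unadjusted p from 0.00871 to 0.0199 and limma adjusted p from 0.169 to 0.25 over all probe sets. These rows measure one group of copies and are not independent. The 4 markers of lymphatic endothelium (Lyve1, Prox1, Pdpn and Flt4) had a median difference of 0.00, with mean signals of 7.54 and 7.83 in Akita and 7.62 to 7.74 in wild type arrays. Their part in the Ccl21 signal was not tested. The 13 probe sets shared by Ccl19 copies had differences from -0.18 to 0.15 in 9 distinct rows.

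Ccr2 marks inflammatory monocytes and the heart macrophages that descend from them. Its signals were 4.13 and 4.33 in the Akita hearts and 4.22, 4.07 and 3.99 in the wild type hearts, close to the limit of the filter. The groups overlapped (log2 difference 0.14, 95% interval -0.16 to 0.43, and 0.04 without Akita replicate 3). Its main ligand gene Ccl2 had 5.03 and 5.64 in the Akita arrays and 5.22, 5.80 and 5.80 in the wild type arrays. Arrays of one group were further apart than the groups (log2 difference -0.27, 95% interval -0.83 to 0.29, limma adjusted p = 0.663). The difference was 0.03 without Akita replicate 1, -0.58 without Akita replicate 3 and -0.47 without wild type replicate 3, so its direction rested on 1 array. A second Ccr2 ligand gene, Ccl7, had 5.42 and 5.66 in Akita and 5.20, 5.39 and 5.28 in wild type hearts. The nearest arrays of the groups lay close together, and the log2 difference was 0.25 (SE 0.13, limma adjusted p = 0.439). It was 0.13 without Akita replicate 3 and 0.37 without Akita replicate 1. Ccl12, another mouse Ccr2 ligand gene, was under the filter, at 3.49 and 3.77 in Akita and 4.54, 4.08 and 3.49 in wild type hearts.

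Ccl3, Ccl4 and Ccl5 attract monocytes, T cells and NK cells, and their genes lie near each other on chromosome 11. Ccr1, a receptor of Ccl3 and Ccl5, was under the filter at 3.22 to 3.78 over all arrays. Ccl4 had signals of 5.55 and 5.42 in the Akita hearts, against 5.21, 5.07 and 5.19 in the wild type hearts. The Akita mean was 5.49 ± 0.09 (SD, n = 2) and the wild type mean 5.16 ± 0.08 (SD, n = 3), a log2 difference of 0.33 (SE 0.11, limma adjusted p = 0.291). Ccl5 had 5.47 and 5.40 in the Akita hearts and 5.22, 5.10 and 5.15 in the wild type hearts (log2 difference 0.28, SE 0.11, limma adjusted p = 0.327). For both genes the groups did not overlap, with each Akita array above each wild type array. Ccl3, the neighbour of Ccl4, lay on the other side: 4.62 and 4.52 in Akita and 4.68, 4.87 and 4.71 in wild type hearts, with a log2 difference of -0.18 (SE 0.12, limma adjusted p = 0.536).

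Over all 16 inflammatory CC ligand genes, 12 were above the filter, of which 7 lay higher and 5 lower, with a median difference of 0.10 (0.02 with the arrays centred). At an unadjusted p under 0.05, 2 were higher and 0 lower, against 4.13% and 9.49% of all genes tested. Ccl24, an eosinophil attractant of the Ccr3 receptor, had 4.94 and 4.67 in Akita and 5.09, 5.17 and 4.92 in wild type hearts (log2 difference -0.26, SE 0.14, limma adjusted p = 0.463). Its groups overlapped through Akita replicate 1, and the difference was -0.12 without Akita replicate 3 and -0.39 without Akita replicate 1. Ccl6, Ccl9 and Ccl11 had clear signals with little difference. Ccl6 had 6.48 and 6.36 in Akita and 6.65, 6.40 and 6.30 in wild type hearts. Ccl9 had 7.11 and 7.42 in Akita and 7.13, 7.17 and 7.14 in wild type hearts. Ccl6 and Ccl9 are rodent ligands of Ccr1, and their differences of -0.03 and 0.12 had 95% intervals of -0.35 to 0.29 and -0.18 to 0.41. Ccl11, which attracts eosinophils through Ccr3, had 6.68 and 6.63 in Akita and 6.67, 6.73 and 6.61 in wild type hearts. The groups overlapped, and the 95% interval of its log2 difference was -0.27 to 0.24.

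The 8 genes for CXC, XC and CX3C receptors included 7 above the filter, and all 7 lay higher in Akita as deposited, with a median difference of 0.21. With the arrays centred 5 lay higher and 2 lower (Cxcr1 and Cxcr3), where 72.6% of all genes tested lay below 0. With quantile normalization 6 of 7 were higher, with Cxcr1 lower. Leaving out Akita replicate 1 also turned Cxcr1 and Cxcr3 below 0. At an unadjusted p under 0.05, 1 of the 7 was higher, and in 4 (Cx3cr1, Cxcr2, Cxcr4 and Cxcr5) the groups did not overlap. Over all genes tested, 4.13% were higher at this threshold and 9.89% lay wholly above wild type.

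Cx3cr1, the fractalkine receptor of patrolling monocytes and tissue macrophages, had the smallest p of the 38. Its signals were 6.61 and 6.74 in the Akita hearts, against 6.43, 6.12 and 6.33 in the wild type hearts. Each Akita array lay above each wild type array, with means of 6.67 ± 0.09 (SD, n = 2) in Akita and 6.29 ± 0.16 (SD, n = 3) in wild type hearts. The log2 difference was 0.38 (SE 0.13, 95% interval 0.08 to 0.69, limma adjusted p = 0.291), and it ran from 0.30 to 0.45 when an array was left out. Cx3cl1, a ligand of this receptor, is tethered to the endothelium by a mucin stalk and shed by proteases. It had 5.93 and 6.35 in Akita and 5.92, 6.15 and 5.95 in wild type hearts, with overlapping groups (log2 difference 0.13, limma adjusted p = 0.751; -0.08 without Akita replicate 3).

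Of 11 macrophage markers tested, 7 lay lower in Akita, near the share of 56.4% below 0 among all genes tested, and 3 lay higher, with Mrc1 at a difference of 0.00 and a list median of -0.24. The mean signal over the list was 6.95 and 7.24 in the Akita arrays, against 7.22 to 7.38 in the wild type arrays. At an unadjusted p under 0.05, 4 were lower (Cd68, C1qa, C1qb and C1qc), where 9.49% of all genes were, and 0 higher, and 0 had an adjusted p under 0.05. Cd68, a lysosomal protein of macrophages, had 6.47 and 6.82 in Akita and 7.51, 7.56 and 7.40 in wild type hearts (limma adjusted p = 0.0773). Of 5 monocyte markers 3 were tested, 1 higher (Treml4, log2 difference 0.15) and 2 lower (Ly6c2 and Ace). Ly6c2 had the smallest p, at 7.42 and 7.33 in Akita and 7.95, 7.63 and 7.83 in wild type hearts (limma adjusted p = 0.242). The part of macrophage and monocyte content in the Cx3cr1 signal was not tested.

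**Figure D4:**
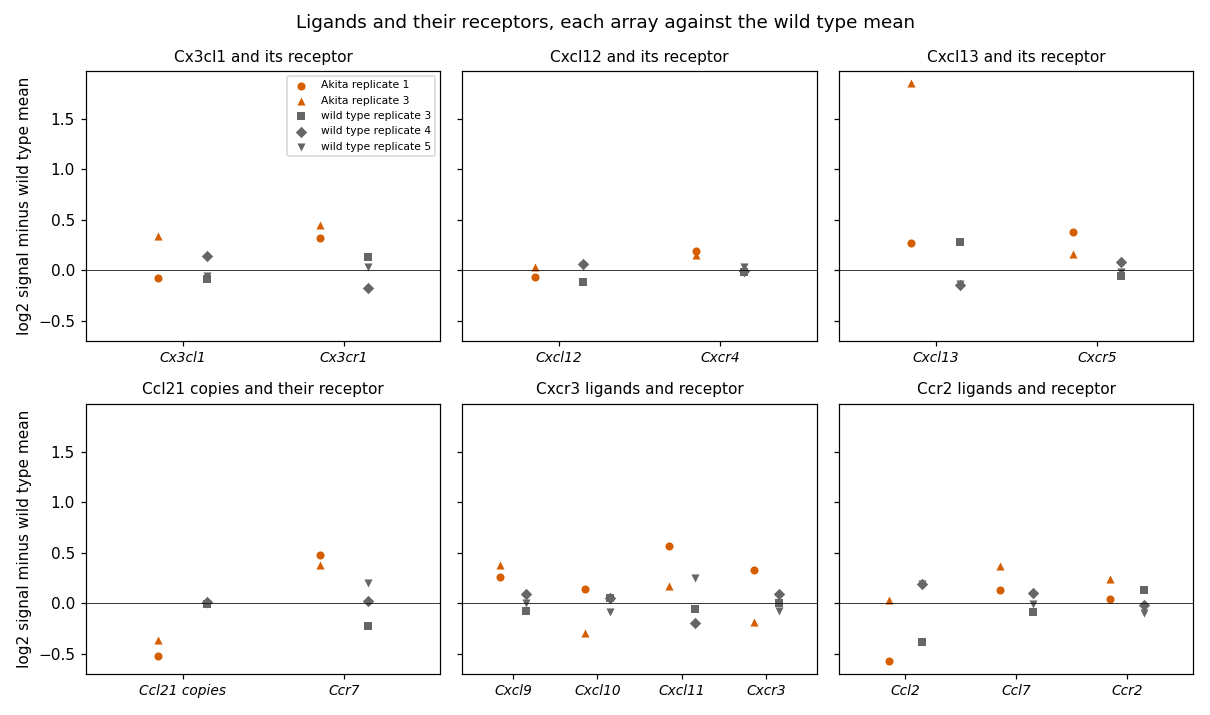
Log2 signal minus the wild type mean (y axis) in each array for ligands and their receptors (x axis), with orange symbols for Akita arrays left of grey symbols for wild type arrays. For the Ccl21 copies the median over the distinct rows of shared probe sets is drawn. Ccr7 lies above 0 and the Ccl21 copies below 0 in both Akita arrays, Cx3cr1 lies higher in both, and Cxcl13 lies far above the rest in Akita replicate 3 alone.

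Cxcl12 and its receptor Cxcr4 retain progenitors and guide vessel growth. Cxcl12 had 8.85 and 8.95 in the Akita hearts and 8.80, 8.98 and 8.96 in the wild type hearts. The groups overlapped fully, with means of 8.90 ± 0.07 (SD, n = 2) in Akita and 8.91 ± 0.10 (SD, n = 3) in wild type hearts. The 95% interval of the log2 difference was -0.28 to 0.26. Cxcr4 had 6.37 and 6.33 in Akita and 6.16, 6.17 and 6.21 in wild type hearts, with groups apart and little spread inside each. Its log2 difference was 0.17 (SE 0.10, limma adjusted p = 0.522). Ackr3, the scavenging second receptor for Cxcl12, lies outside the 52 by its symbol, and had 6.93 and 6.84 in Akita and 6.96, 7.34 and 7.21 in wild type hearts (log2 difference -0.29, limma adjusted p = 0.428).

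Cxcl13, made by stromal cells of B cell follicles and by body-cavity macrophages, had the largest difference of the 38, and this rested on 1 array. Its signals were 5.36 in Akita replicate 1 and 6.95 in Akita replicate 3, against 5.37, 4.95 and 4.96 in the wild type hearts. Akita replicate 1 lay just below wild type replicate 3, so the groups overlapped. The log2 difference was 1.06 (SE 0.41, 95% interval 0.11 to 2.02, limma adjusted p = 0.325). Without Akita replicate 3 it was 0.27, and without Akita replicate 1 it was 1.86 with a limma adjusted p of 0.0348, where the lone array was assumed to vary like the other group. The receptor gene Cxcr5, which marks B cells and follicular T cells, had 4.73 and 4.51 in Akita and 4.29, 4.43 and 4.33 in wild type hearts, so the higher array here was Akita replicate 1 (log2 difference 0.27, SE 0.12, limma adjusted p = 0.384; 0.16 without Akita replicate 1).

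Marker genes of several other cell types were high in Akita replicate 3, and adipocyte markers were higher in both Akita arrays. Epicardial and mesothelial markers had a mean signal of 5.42 and 6.05 in Akita replicates 1 and 3, against 5.37 to 5.39 in the wild type arrays, with Upk3b at 7.49 in replicate 3 and 6.15 to 6.18 in wild type. Of the 5 such markers, 3 had a group difference above 0. Atrial muscle markers had mean signals of 8.26 and 10.7 in Akita replicates 1 and 3 and 8.76 to 8.97 in wild type arrays. The group difference was above 0 in 4 of 4, but in Myl7 and Sln replicate 1 lay below all wild type arrays. Myl7 had 6.55 and 10.36 in Akita replicates 1 and 3, against 7.83 to 8.10 in wild type, and Sln 6.71 and 10.85, against 7.74 to 8.13. Nppa lay above wild type in both Akita arrays, and Myl4 in replicate 3 alone. The 3 tested adipocyte markers (Plin1, Cidec and Retn), all with a group difference above 0, had 5.36 and 5.76 in the Akita arrays, against 4.96 to 5.07 in the wild type arrays. In all 3 both Akita arrays lay above all wild type arrays, against 9.89% of all genes tested. All 3 had an unadjusted limma p under 0.05, against 4.13% of all genes that were higher, with adjusted p from 0.212 to 0.234. Fibroblast markers, 4 of 5 above 0, had 8.48 and 9.06 in the Akita arrays, against 8.47 to 8.65 in the wild type arrays. Mean signals of the 3 tested B cell markers were 4.29 and 4.28 in the Akita arrays, against 4.30 to 4.57 in the wild type arrays, and 0 of 3 lay higher. The B cell marker Ms4a1 was under the filter, at 3.33 and 3.46 in the Akita arrays and 3.18, 3.11 and 3.18 in the wild type arrays, so both Akita arrays lay above wild type. The part of these cell types, B cells included, in the Cxcl13 signal was not tested.

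**Figure D5:**
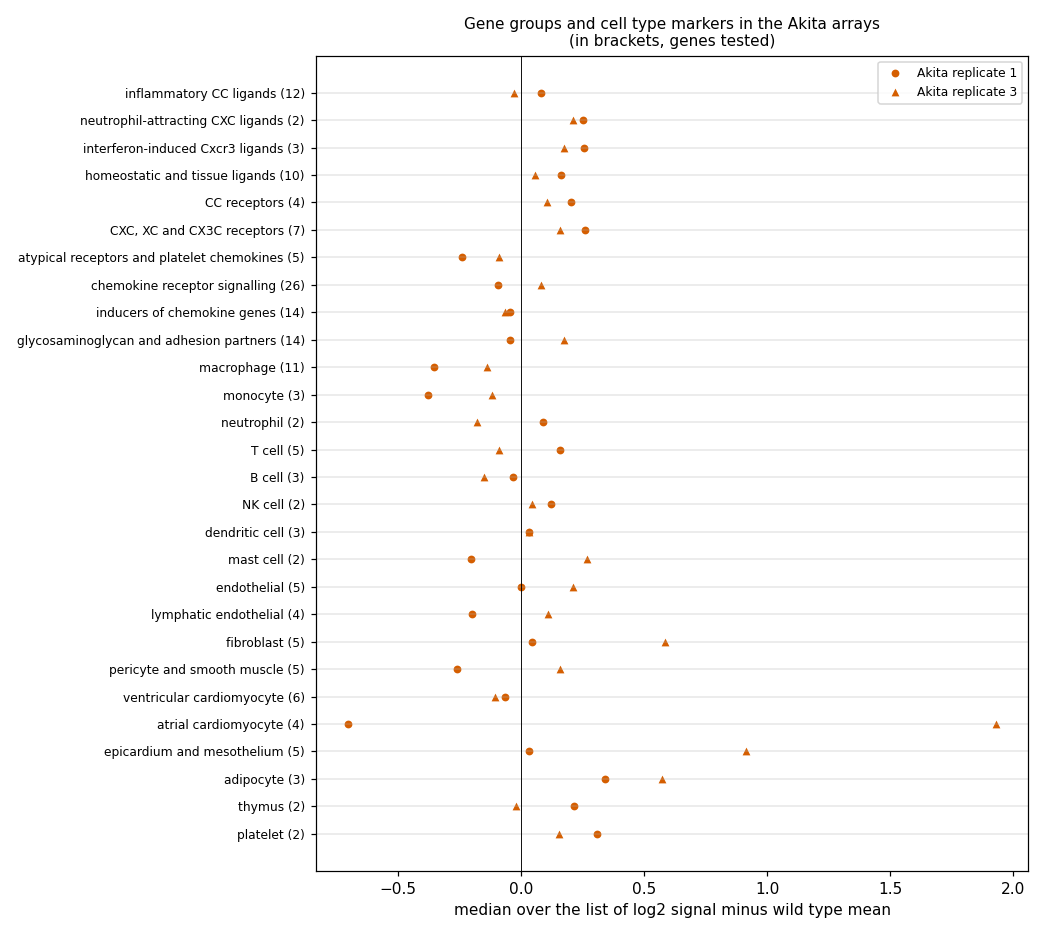
Median over each gene list of the log2 signal minus the wild type mean (x axis) in Akita replicates 1 and 3, for the chemokine and receptor groups, related genes and cell type markers (y axis). The median for the CXC, XC and CX3C receptors is above 0 in both arrays and that of macrophage markers below 0 in both, while atrial, mesothelial and fibroblast markers are high in replicate 3.

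Cxcl9, Cxcl10 and Cxcl11 are induced by interferons and share the receptor Cxcr3 of effector T cells and NK cells and lay on both sides of 0. Cxcl9 had 7.07 and 7.19 in the Akita hearts and 6.73, 6.90 and 6.81 in the wild type hearts. The groups were apart, with means of 7.13 ± 0.08 (SD, n = 2) in Akita and 6.81 ± 0.09 (SD, n = 3) in wild type hearts (log2 difference 0.32, SE 0.11, limma adjusted p = 0.306). Cxcl10 had 4.66 and 4.23 in Akita and 4.57, 4.57 and 4.43 in wild type hearts (log2 difference -0.08, limma adjusted p = 0.866), and without Akita replicate 3 the difference was 0.14. Cxcl11 had 4.90 and 4.51 in Akita and 4.28, 4.14 and 4.59 in wild type hearts, and the groups overlapped (log2 difference 0.37, SE 0.18, limma adjusted p = 0.417). This was 0.17 without Akita replicate 1 and 0.56 without Akita replicate 3. RefSeq lists Cxcl11 as a transcribed pseudogene in this C57BL/6J assembly. Cxcr3 itself had 5.38 and 4.87 in Akita and 5.05, 5.14 and 4.97 in wild type hearts, where the Akita arrays lay on both sides of the wild type range.

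The CXC ligands that attract neutrophils through Cxcr2 had weak signals. Of the 5, Cxcl1 and Cxcl5 were above the filter. Cxcl1 had 5.27 and 4.82 in Akita and 4.98, 4.56 and 4.66 in wild type hearts (log2 difference 0.31, SE 0.18, limma adjusted p = 0.499), and without Akita replicate 1 the difference was 0.09. Cxcl2 was under the filter, at 4.38 and 3.76 in Akita and 3.80, 3.12 and 3.51 in wild type hearts. Cxcr2 had 5.0 and 4.98 in Akita and 4.81, 4.51 and 4.90 in wild type hearts, with groups apart (log2 difference 0.25, SE 0.14, limma adjusted p = 0.487; 0.135 without wild type replicate 4). The neutrophil genes S100a8, S100a9, Camp, Ltf, Ngp, Ly6g and Retnlg were under the filter, and of 9 neutrophil markers measured 2 were tested.

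Among the ligands with tissue or homeostatic roles, 8 of 10 lay higher as deposited, against 5 of 10 with the arrays centred and 7 of 10 with quantile normalization. Over all genes tested, 56.4% lay below 0 as deposited, 72.6% with centring and 55.7% with quantile normalization. Cxcl14, an epithelial and stromal chemokine, had 8.36 and 7.89 in Akita and 8.02, 7.78 and 7.77 in wild type hearts. Akita replicate 1 was the highest array and replicate 3 lay within the wild type range (log2 difference 0.27, SE 0.17, limma adjusted p = 0.528; 0.03 without Akita replicate 1). Cxcl16, a membrane-bound ligand that also takes up oxidised lipoprotein, had 7.07 and 7.27 in Akita and 7.01, 7.12 and 7.16 in wild type hearts. Its difference of 0.07 had a 95% interval of -0.20 to 0.35 and turned to -0.012 with the arrays centred. Its receptor gene Cxcr6 was under the filter, at 3.35 in both Akita arrays and 3.21 to 3.44 in wild type. Ccl27a, a skin chemokine, shared its values with probe sets annotated to several copies, so its difference of -0.02 cannot be assigned to that gene alone.

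The 14 genes under the filter were Ccl8, Ccl12, Ccl17, Ccl26, Cxcl2, Cxcl3, Cxcl15, Ccr1, Ccr1l1, Ccr3, Ccr6, Ccr8, Ccr9 and Cxcr6, with values from 2.06 to 4.54 over all arrays. Their group differences ran from -0.41 for Ccl12 to 0.59 for Cxcl2, and in 3 the groups did not overlap. Without a filter, 11.9% of all genes lay wholly above wild type and 15.7% wholly below. Ccr8, a receptor of regulatory and skin T cells, had 3.74 and 3.96 in Akita and 4.20, 4.20 and 4.21 in wild type hearts. It missed the limit of the filter narrowly, with a mean of 4.06. Ccl26 lay lower as well, at 3.82 and 3.51 in Akita and 3.96, 3.84 and 3.96 in wild type hearts. Ccr9, the receptor for thymic and gut Ccl25, was higher, at 3.86 and 3.64 in Akita and 3.58, 3.42 and 3.56 in wild type hearts.

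Chemokine genes lie in arrays of neighbours, and by RefSeq gene order 35 of the 52 had another member with at most 3 protein-coding genes between them, in 9 groups. In the chromosome 11 groups, Ccl2, Ccl7, Ccl11, Ccl12, Ccl8 and Ccl1 had a median difference of 0.04 over the 4 tested, and Ccl5, Ccl9, Ccl6, Ccl3 and Ccl4 had 0.12 over all 5. In the receptor group of 7 genes on chromosome 9 (Ccr9, Cxcr6, Xcr1, Ccr1, Ccr1l1, Ccr3 and Ccr2), Xcr1 and Ccr2 were above the filter. Xcr1, the receptor of cross-presenting dendritic cells, had 4.79 and 4.98 in Akita and 4.57, 4.58 and 4.87 in wild type hearts. Neighbours lay on both sides of 0 in both chromosome 11 groups.

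Genes around the chemokine system had 0 members past an adjusted p of 0.05 in each of 4 lists, by limma. The 7 atypical receptor and platelet chemokine genes had 5 above the filter, 2 higher and 3 lower (median -0.19), with 0 at an unadjusted p under 0.05. Besides Ackr3, Ccrl2 had the smallest p, a non-signalling receptor that presents chemerin (7.02 and 7.29 in Akita, against 7.50, 7.35 and 7.29 in wild type hearts). Of 26 genes of receptor signalling, 12 lay higher and 14 lower (median -0.03), with 3 higher and 2 lower at an unadjusted p under 0.05. Over all genes tested these shares were 4.13% and 9.49%. The 3 higher genes were Grk5, Rgs2 and Gng2, with log2 differences of 0.395, 0.28 and 0.28. The 2 lower genes had the smallest p-values of the list. Vav1, a signalling protein of leukocytes, had 4.65 and 5.0 in Akita and 5.32, 5.21 and 5.31 in wild type hearts (log2 difference -0.46, SE 0.14, limma adjusted p = 0.237). Arrb2, the arrestin that ends receptor signalling, had 5.59 and 5.93 in Akita and 6.06, 6.29 and 6.11 in wild type hearts (log2 difference -0.39, limma adjusted p = 0.307).

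Of 14 tested inducers of chemokine genes (cytokines, their receptors and transcription factors), 6 lay higher and 8 lower, with a median of -0.03. With the arrays centred all 14 lay lower, where 72.6% of all genes tested did. The centred median was -0.11 over the list and -0.12 over all genes tested. At an unadjusted p under 0.05, 0 were higher and 2 lower, against 4.13% and 9.49% of all genes tested. Rela, the NF-kappaB subunit that activates transcription, had 8.60 and 8.75 in Akita and 9.05, 8.97 and 8.99 in wild type hearts (log2 difference -0.33, SE 0.11, limma adjusted p = 0.285). Myd88, the adaptor of Toll-like and interleukin 1 receptors, had 6.49 and 6.94 in Akita and 7.21, 7.15 and 6.96 in wild type hearts (limma adjusted p = 0.350). In both genes each Akita array lay below each wild type array. Of 14 adhesion and glycosaminoglycan partners, 10 lay higher and 4 lower (median 0.14), against 43.3% above 0 among all genes tested. At an unadjusted p under 0.05 there were 0, against 4.13% of all genes higher and 9.49% lower. In 3 of the 14 (Icam1, Itga4 and Adam10) both Akita arrays lay above all wild type arrays, and in 0 both lay below. Over all genes tested these shares were 9.89% and 19.9%. The leukocyte integrin genes Itgam and Itgb2 had the smallest p-values, with log2 differences of -0.34 and -0.27 and limma adjusted p-values of 0.435 and 0.442.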

How the data were processed

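Heart RNA was labelled with the maker's whole-transcript kit and hybridised to 5 arrays, per the labels' protocols. Each deposited value is the log2 signal of a probe set on an array, made by the authors with Affymetrix Expression Console, per the submitters' processing notes. Its version, summarisation and normalization: not given in the sources used here. A log base of 2 was read from the range of 1.27 to 13.66. If arrays were scaled to each other, a change common to nearly all genes is hidden, and background signal shrinks differences of dim genes.

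Of 41345 probe sets, 23521 had 1 annotated symbol, 1814 had several and 16010 were not listed and are unnamed here. All 52 genes matched RefSeq by Entrez identifier, and 1 of them, Ccl27a, had more than 1 probe set. Coordinates are those of the RefSeq sequences. Genes with a mean below the 30th percentile were not tested. The Akita minus wild type difference came from lmFit and eBayes of limma 3.58.1 (R 4.3.3), two-sided, on 3 residual plus 4.38 prior degrees of freedom. The median SD within groups was 0.144. The fit was tested on simulated data. The number of arrays limits the precision, and the labels name no batch. Figures used Python 3.11.15, pandas 2.3.3 and matplotlib 3.10.9.

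The genes and lists were chosen with earlier results of these data known. The rule named members past an adjusted p of 0.05, members with groups apart by at least 0.5, their ligand or receptor partners, the 12 members of smallest p, the 10 of highest signal, the 2 genes of smallest p in each other list, and cell type markers. No member met the first 2 criteria. Further members and genes in the text were picked with their values in view. Alternatives were other filters, averaging all probe sets, quantile normalization, centring, a robust intensity trend, weighting of arrays, leaving out each array and a threshold of 0.1. Signal bands and the fit over all probe sets were added after seeing the data.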

Additional observations from a re-analysis of the deposited data

How the results depend on the processing

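With the values as deposited and all arrays kept, no member was called at an adjusted limma p of 0.1 either. At 0.05, leaving out Akita replicate 1 gave 1 call, Cxcl13, and the other alternatives run gave 0 (counts of calls from 0 to 1 higher and 0 to 0 lower with an array left out). The 6 members higher at an unadjusted p under 0.05 became 2 with the arrays centred, against 2.05% of all genes. With a wild type array left out there were 2 to 4, against 2.71% to 4.28% of all genes, and the genes changed as well. Lower members at this threshold numbered 0 as deposited, against 9.49% of all genes tested. They numbered 1 without a filter (6.67% of all genes) or with the mean of all probe sets (9.38%), and 3 with quantile normalization (9.84%). With a wild type array left out they numbered 0. The 9 members lying wholly above wild type were 9 to 22 with an array left out, against 13.3% to 25.2% of all genes. A group of fewer arrays is apart more often by construction. The 1 member of 38 lying wholly below compared with 19.9% of all genes. Without a filter it became 3 of 52 (15.7% of all genes), and with a filter at the 50th percentile 0 of 17 (25.4%). The mean of all probe sets gave 2 of 39 (19.8%), quantile normalization 3 of 39 (20.4%) and centring 2 of 38 (25.8%). With an array left out there were 1 to 5, against 23.6% to 43.4% of all genes. The median difference over members stayed above 0 in all these settings, at 0.08 to 0.19 with an array left out. Of the 20 named members, 6 turned direction somewhere. Quantile normalization gave 0.0207 for Cxcl12, 0.0517 for Ccl11 and 0.021 for Ccl6, and centring gave -0.0117 for Cxcl16. With an array left out Cxcl12 ran from -0.07 to 0.0367, Ccl9 from -0.0367 to 0.27, Cxcl16 from -0.0267 to 0.17, Ccl11 from -0.045 to 0.015, Ccl6 from -0.11 to 0.07 and Cx3cl1 from -0.0767 to 0.34. The cause was not tested. No paired analysis was possible because the groups share a single replicate number.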
